A study of Mus musculus with 12 samples.

Results

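Resident macrophages of erythroblastic islands were followed through 10 of their genes, Vcam1, Siglec1, Cd163, Mrc1, Cd5l, Fcna, Axl, Mertk, Adgre1 and Spic, among 19935 genes measured in CD71-enriched mouse bone marrow. The genes were chosen by name with earlier results of these data known, so their shared direction is a description and no independent finding. Each was read by 1 probe set whose only annotated gene it was, so all 10 of 10 were found. The cells came from hind-leg marrow of male C57BL/6J mice aged 10 to 12 weeks, enriched with magnetic beads for CD71, the transferrin receptor of red cell precursors, and each of 12 mice gave 1 whole-transcript array. The 4 groups held 3 mice each. They were CD70TG*Ifng-/- mice, which carry a CD70 transgene and lack interferon-gamma, CD70TG mice, which carry the transgene (clone F13 in the labels of these mice) with Ifng intact, Ifng-/- mice, which lack interferon-gamma and have no transgene, and WT mice, which have neither change. CD70 is the ligand of the costimulatory receptor CD27, and the transgene keeps lymphocytes under constant stimulation. The labels do not give the promoter of the transgene or the part of Ifng that was removed. The study compared how lasting CD70 stimulation and interferon-gamma each bear on red cell formation.

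In an erythroblastic island a central macrophage holds maturing red cell precursors around it, supplies them with iron and takes up the nuclei that they expel. VCAM-1 and sialoadhesin (the Siglec1 product) are among the surface proteins by which the macrophage holds these cells, CD163 and the mannose receptor (Mrc1) are scavenger receptors, AXL and MERTK are receptors for engulfment, the Adgre1 product is the classical surface marker of mouse macrophages, and Spi-C is a transcription factor of iron-recycling macrophages. The samples were enriched by CD71 alone and can hold macrophages beside the precursors. In such mixed samples fewer macrophages and less RNA per macrophage cannot be told apart. VCAM-1 is also made by marrow stroma and endothelium, and AXL by stromal cells.

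Every value below is a log2 value, made by RMA by the authors and centred so that the median of the gene's probe set on the 12 arrays is 0. A difference of 1 is a 2-fold difference, and levels of different genes cannot be compared. Since the 6 arrays with the transgene lay below the 6 without it for all 10 genes, 0 is the midpoint between the highest array of the first set and the lowest of the second, and equal values of opposite sign on those arrays come from the centring. The share of all genes whose 6 transgenic arrays lay below the 6 others is not given here. The rounding of the deposited numbers still separates probe sets with an original log2 level of at least 8 on all 12 arrays from the others. A gene that is under 8 on some arrays only, such as those of 1 group, falls outside this class. Of the 10 genes 0 lay in that brighter class, which held 4356 of 28815 probe sets (15.1%), whereas all 7 measured red cell precursor markers did (Tfrc, Klf1, Gata1, Epor, Alas2, Slc4a1 and Epb42). The 10 genes were thus under 8 on at least part of the arrays, and their level in each group is not known. The labelled enrichment for red cell precursors was thus checked only by this class.

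The median absolute difference over probe sets between 2 arrays of one group was 0.0847 to 0.138. WT 2 stood apart from the other WT arrays in the macrophage genes: it was the highest WT array for all 10, whereas it was the highest for 32.6% of all genes. This was not particular to the 10. Among the lists described below, it was also the highest for 9 of 11 macrophage regulators and 8 of 9 iron recycling genes. The same held for 6 of 7 B cell and 6 of 8 neutrophil markers, but for only 2 of 8 monocyte markers. The mean of the 10 genes was 1.62 on WT 2, against 0.92 on WT 1 and 0.82 on WT 3. Results that turn on WT 2 are given with and without it.

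The genes lie on 6 chromosomes, 4 of them on chromosome 2 (Mrc1, Siglec1, Mertk and Fcna) and 2 on chromosome 3 (Vcam1 and Cd5l), with Cd163 on chromosome 6, Axl on 7, Spic on 10 and Adgre1 on 17. Promoter windows from RefSeq on GRCm38.p6, running from 250 bases before a start site to 50 after it, were given for 7 of them (Cd163, Mrc1, Cd5l, Axl, Spic, Mertk and Fcna). Both strands were searched for the core GAGGAAG bound by PU.1 and Spi-C, ETS-family factors of the myeloid lineage. It occurred in 4 of the 7 windows, those of Mrc1, Cd5l, Axl and Fcna, against 13.6% of all 32851 windows. The 250 bases before a start site of each of these 4 genes are shown because they hold the core. The windows of Spic, Cd163 and Mertk, genes that moved in the same direction, did not hold it, and a link to Spi-C was not tested. Each sequence reads 5′ to 3′ on the gene's own strand, and capitals mark the core, written CTTCCTC where it lies on the opposite strand.
Mrc1 (chr2:14229164-14229413, plus strand): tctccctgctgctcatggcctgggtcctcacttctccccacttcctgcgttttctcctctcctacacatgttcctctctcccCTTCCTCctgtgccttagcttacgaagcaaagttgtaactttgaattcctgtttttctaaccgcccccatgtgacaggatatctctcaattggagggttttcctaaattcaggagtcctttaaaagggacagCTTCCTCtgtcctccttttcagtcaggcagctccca
Cd5l (chr3:87357631-87357880, plus strand): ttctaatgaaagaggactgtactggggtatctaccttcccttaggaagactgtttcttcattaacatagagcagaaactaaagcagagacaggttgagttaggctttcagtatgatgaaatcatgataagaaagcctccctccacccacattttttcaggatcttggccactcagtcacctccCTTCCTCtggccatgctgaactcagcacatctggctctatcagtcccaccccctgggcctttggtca
Axl (chr7:25788734-25788983, minus strand): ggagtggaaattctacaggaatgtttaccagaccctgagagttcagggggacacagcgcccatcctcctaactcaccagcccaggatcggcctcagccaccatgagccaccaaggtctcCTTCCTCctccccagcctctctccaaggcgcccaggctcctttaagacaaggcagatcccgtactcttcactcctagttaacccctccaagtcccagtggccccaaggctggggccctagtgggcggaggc
Fcna (chr2:25627975-25628224, minus strand): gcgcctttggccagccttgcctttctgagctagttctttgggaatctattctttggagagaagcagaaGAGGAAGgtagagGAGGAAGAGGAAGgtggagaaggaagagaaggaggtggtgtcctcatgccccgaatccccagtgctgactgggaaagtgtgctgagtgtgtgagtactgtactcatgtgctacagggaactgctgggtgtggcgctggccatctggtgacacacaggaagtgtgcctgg
Mrc1 held the core at bases -168 to -162 and -36 to -30 before the start, Cd5l at -67 to -61 and Axl at -131 to -125. Fcna held it 3 times, at -182 to -176, -169 to -163 and -163 to -157, the last 2 sharing a base. The Fcna bases shown lie within the annotated span of that gene (25624665 to 25635440 on chromosome 2), so they precede a start site inside the gene. The Axl bases shown lie partly within the span of Axl (25756500 to 25788924 on chromosome 7). The kappa-B pattern occurred in 4 of the 7 windows (Cd163, Mrc1, Axl and Mertk) against 50.8% of all, and the Maf core TGCTGAC in 1 (Fcna) against 4.67%. The ISRE core of interferon-response factors occurred in 0 of the 7, against 3.44% of all windows. These matches describe letters only.

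All 10 macrophage genes were lower in the transgenic marrow, with and without interferon-gamma. In CD70TG against WT all 10 fell, with a median of -2.10 (from -2.93 for Mrc1 to -1.12 for Siglec1), where the median of all genes was -0.02. Of all 19935 genes 2.70% were called lower in that comparison. In CD70TG*Ifng-/- against Ifng-/- all 10 fell as well, with a median of -2.69 (from -4.21 for Vcam1 to -1.20 for Siglec1), where the median of all genes was 0.04 and 2.35% of genes were called lower. In each comparison the 3 transgenic arrays lay below the 3 others for all 10 genes, as they did for 13.5% of all genes in the first and 7.09% in the second. These calls are from limma with p-values adjusted by the Benjamini-Hochberg method over all genes, and the largest adjusted p of the 10 was 5.34e-04 for CD70TG and 1.79e-05 for CD70TG*Ifng-/-. All 20 calls held under every alternative tried, including leaving out any 1 of the 12 arrays.

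**Figure D1:**
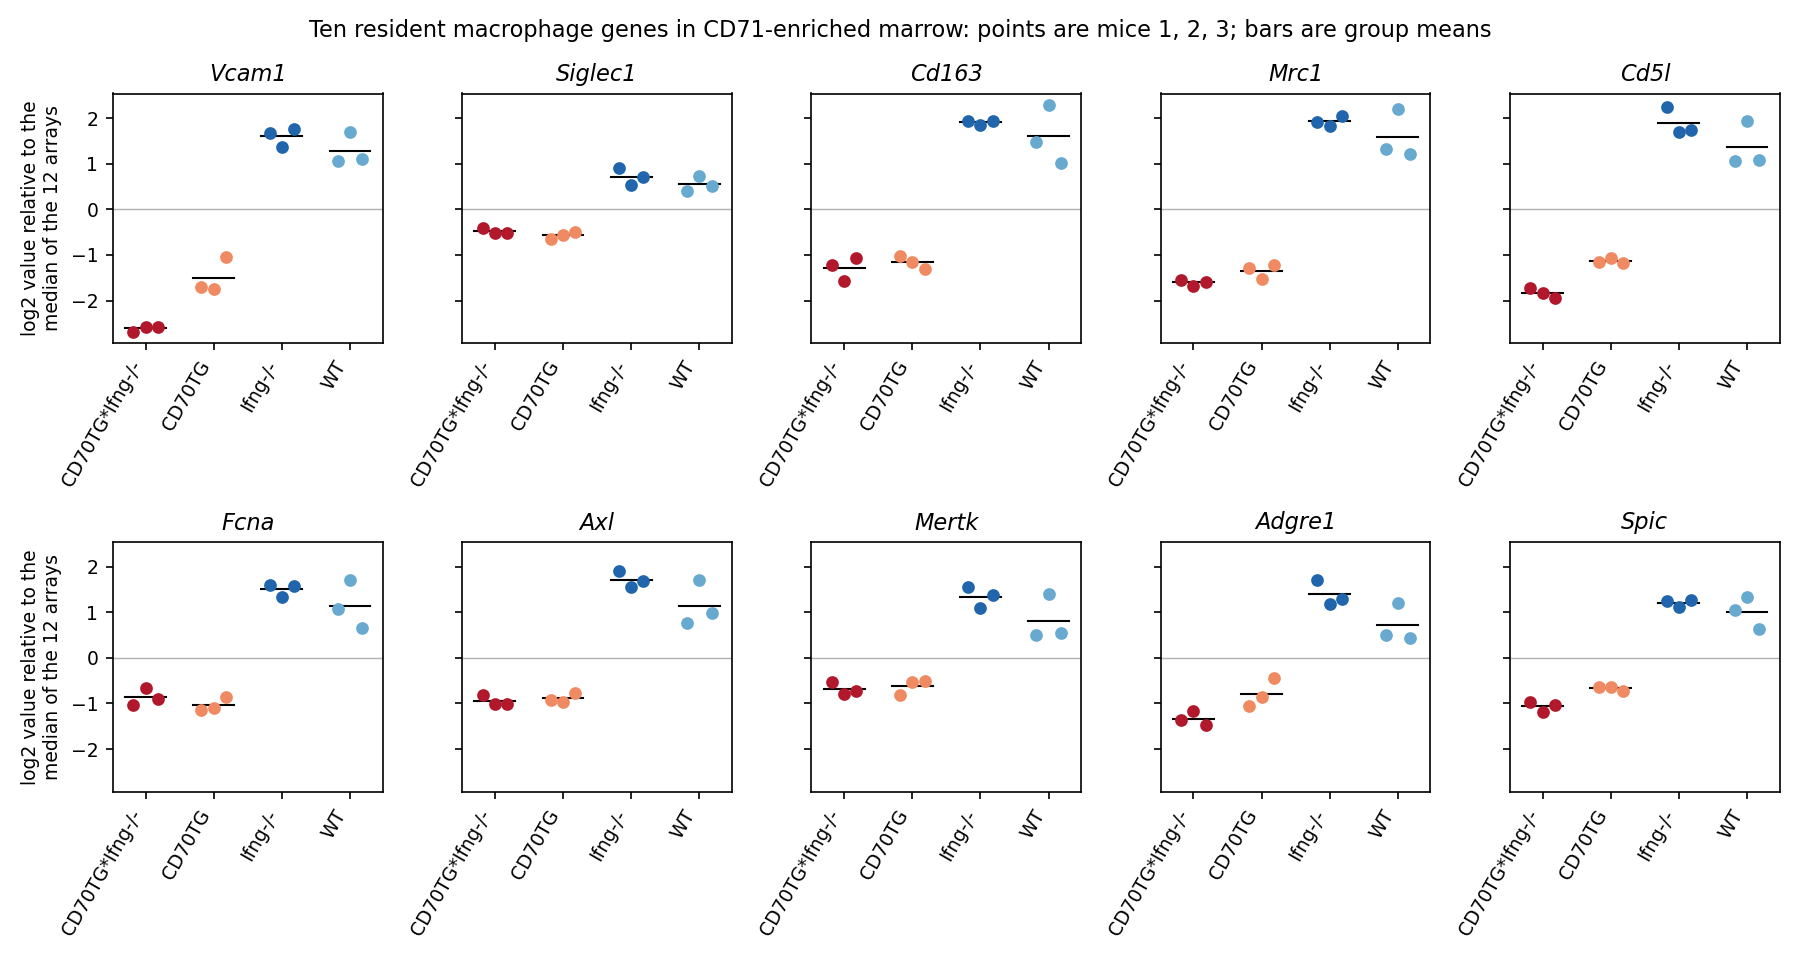
Log2 value of each of the 10 genes (vertical axis, relative to the median of the 12 arrays) in the 4 groups (horizontal axis). Each point is 1 mouse, in the order 1, 2, 3, and the bar is the group mean. For every gene the 6 transgenic arrays lie below 0 and the 6 others above it, and WT 2 is the highest of the WT points. The share of all genes split in this way is not given here.

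Of the island adhesion genes, Vcam1 encodes the macrophage ligand of the integrin alpha-4 beta-1 on red cell precursors. It stood at -2.68, -2.57 and -2.57 in CD70TG*Ifng-/- mice, against 1.67, 1.37 and 1.77 in Ifng-/- mice. In CD70TG mice it stood at -1.70, -1.75 and -1.05, against 1.05, 1.69 and 1.11 in WT mice. The 3 CD70TG*Ifng-/- arrays lay below all 9 others and close together. Vcam1 fell 18.5-fold in CD70TG*Ifng-/- (-4.21 ± 0.18, SE, n = 3 per group, adjusted p = 2.31e-08) and 6.88-fold in CD70TG (-2.78 ± 0.18, adjusted p = 1.65e-06). Its group means spanned 4.21, the widest span of all 19935 genes.

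Siglec1 encodes sialoadhesin (CD169), a lectin that binds sialic acids on neighbouring cells. It stood at -0.41, -0.52 and -0.53 in CD70TG*Ifng-/- mice, against 0.91, 0.53 and 0.71 in Ifng-/- mice. It stood at -0.65, -0.55 and -0.51 in CD70TG mice, against 0.41, 0.73 and 0.52 in WT mice. The arrays with the transgene overlapped with each other, and so did those without it. The fall was 2.30-fold in CD70TG*Ifng-/- (-1.20 ± 0.10, adjusted p = 5.87e-06) and 2.18-fold in CD70TG (-1.12 ± 0.10, adjusted p = 2.21e-05), the smallest of the 10 genes in both comparisons. Log2 differences of different probe sets depend on each probe set's own response, so the order of the genes by size describes these probe sets.

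Among the scavenger receptors and soluble pattern-recognition proteins, Cd163 encodes the receptor that takes up haemoglobin bound to haptoglobin. It stood at -1.22, -1.57 and -1.06 in CD70TG*Ifng-/- mice, against 1.93, 1.84 and 1.94 in Ifng-/- mice. It stood at -1.03, -1.16 and -1.30 in CD70TG mice, against 1.48, 2.29 and 1.03 in WT mice. The WT arrays spread over 1.27, the widest range of any of the 10 genes within a group, and still lay above all transgenic arrays. Cd163 fell 9.12-fold in CD70TG*Ifng-/- (-3.19 ± 0.23, adjusted p = 1.16e-06) and 6.79-fold in CD70TG (-2.76 ± 0.23, adjusted p = 9.34e-06).

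Mrc1, the mannose receptor CD206, takes up glycoproteins with exposed mannose. Its values were -1.54, -1.68 and -1.58 in CD70TG*Ifng-/- mice, against 1.92, 1.82 and 2.04 in Ifng-/- mice. They were -1.28, -1.53 and -1.22 in CD70TG mice, against 1.33, 2.20 and 1.22 in WT mice. The highest CD70TG*Ifng-/- array lay just below the lowest CD70TG array. Mrc1 fell 11.6-fold in CD70TG*Ifng-/- (-3.53 ± 0.19, adjusted p = 6.41e-08) and 7.61-fold in CD70TG (-2.93 ± 0.19, adjusted p = 1.65e-06).

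Cd5l encodes AIM, a secreted scavenger-receptor protein that protects macrophages from apoptosis. It stood at -1.72, -1.83 and -1.93 in CD70TG*Ifng-/- mice, against 2.25, 1.68 and 1.73 in Ifng-/- mice. It stood at -1.14, -1.06 and -1.18 in CD70TG mice, against 1.06, 1.93 and 1.09 in WT mice. The 3 CD70TG*Ifng-/- arrays lay below the 3 CD70TG arrays. The fall was 13.1-fold in CD70TG*Ifng-/- (-3.72 ± 0.19, adjusted p = 6.34e-08) and 5.61-fold in CD70TG (-2.49 ± 0.19, adjusted p = 7.17e-06).

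Fcna encodes ficolin A, a secreted lectin that starts the lectin pathway of complement and is made by liver and spleen macrophages. It stood at -1.03, -0.65 and -0.91 in CD70TG*Ifng-/- mice, against 1.60, 1.33 and 1.58 in Ifng-/- mice. It stood at -1.15, -1.10 and -0.85 in CD70TG mice, against 1.07, 1.70 and 0.65 in WT mice. WT 3 was the lowest array without the transgene. Fcna fell 5.16-fold in CD70TG*Ifng-/- (-2.37 ± 0.19, adjusted p = 4.32e-06) and 4.51-fold in CD70TG (-2.17 ± 0.19, adjusted p = 2.06e-05).

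The engulfment receptors Axl and Mertk belong to the TAM kinases, which recognise phosphatidylserine on dying cells and expelled nuclei through the bridging proteins Gas6 and protein S. Axl stood at -0.824, -1.006 and -1.003 in CD70TG*Ifng-/- mice, against 1.90, 1.55 and 1.69 in Ifng-/- mice, and at -0.93, -0.96 and -0.76 in CD70TG mice, against 0.76, 1.70 and 0.97 in WT mice. The arrays of the 2 transgenic groups of Axl interleaved. Mertk stood at -0.53, -0.80 and -0.72 in CD70TG*Ifng-/- mice, against 1.56, 1.08 and 1.37 in Ifng-/- mice, and at -0.82, -0.53 and -0.50 in CD70TG mice, against 0.50, 1.39 and 0.55 in WT mice. For Mertk, too, the 2 transgenic groups overlapped. Axl fell 6.30-fold in CD70TG*Ifng-/- (-2.66 ± 0.18, adjusted p = 6.61e-07) and 4.08-fold in CD70TG (-2.03 ± 0.18, adjusted p = 1.77e-05). Mertk fell 4.05-fold in CD70TG*Ifng-/- (-2.02 ± 0.19, adjusted p = 1.79e-05) and 2.70-fold in CD70TG (-1.43 ± 0.19, adjusted p = 5.34e-04).

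Adgre1, the macrophage surface marker gene, which encodes an adhesion-type G protein-coupled receptor, stood at -1.37, -1.18 and -1.47 in CD70TG*Ifng-/- mice, against 1.71, 1.17 and 1.29 in Ifng-/- mice. It stood at -1.05, -0.86 and -0.44 in CD70TG mice, against 0.51, 1.21 and 0.44 in WT mice. CD70TG 3 and WT 3 were the closest arrays of the 2 groups with Ifng intact, and the CD70TG*Ifng-/- arrays lay below all CD70TG arrays. Adgre1 fell 6.62-fold in CD70TG*Ifng-/- (-2.73 ± 0.20, adjusted p = 1.57e-06) and 2.83-fold in CD70TG (-1.50 ± 0.20, adjusted p = 4.61e-04).

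Spic, whose product is needed for red pulp macrophages of the spleen and is induced by haem, stood at -0.96, -1.18 and -1.04 in CD70TG*Ifng-/- mice, against 1.24, 1.11 and 1.27 in Ifng-/- mice. It stood at -0.64, -0.64 and -0.72 in CD70TG mice, against 1.05, 1.34 and 0.64 in WT mice. The CD70TG arrays lay within a range of 0.0867 and above all CD70TG*Ifng-/- arrays. Spic fell 4.81-fold in CD70TG*Ifng-/- (-2.27 ± 0.13, adjusted p = 1.73e-07) and 3.19-fold in CD70TG (-1.67 ± 0.13, adjusted p = 7.81e-06).

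**Figure D2:**
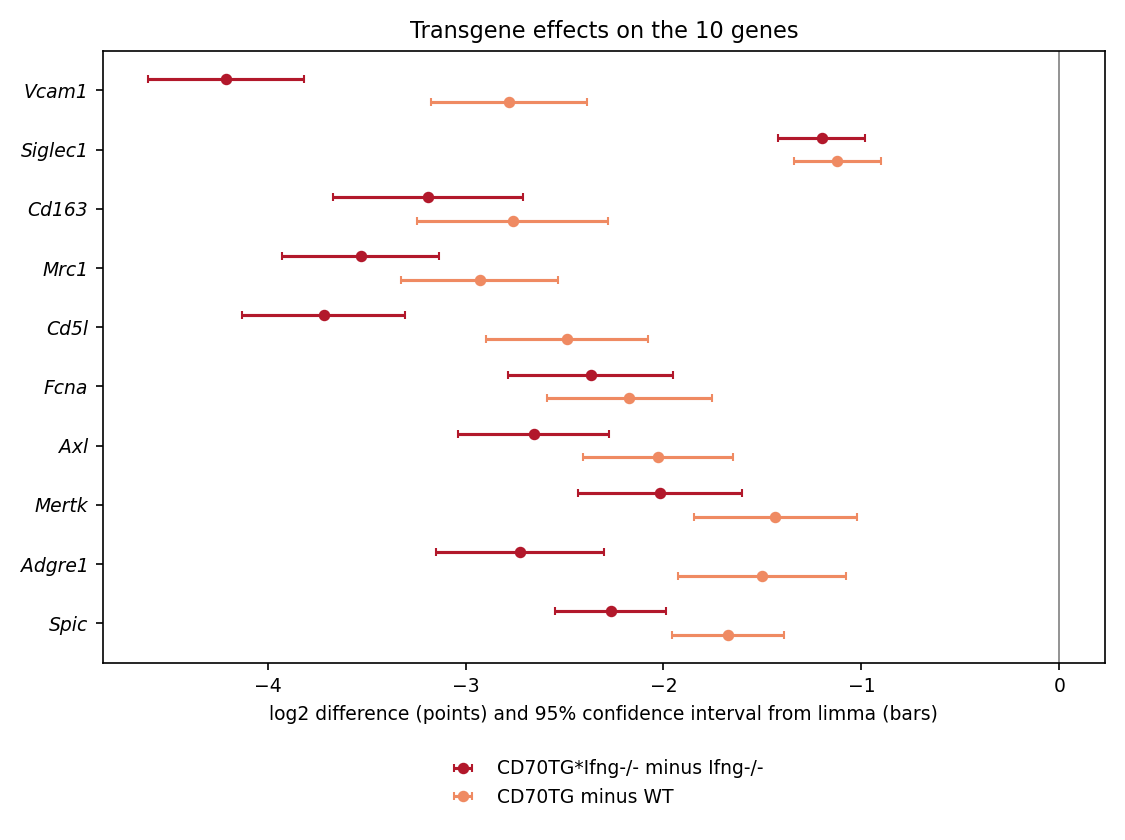
Log2 difference (horizontal axis) of the 10 genes (vertical axis) for CD70TG*Ifng-/- minus Ifng-/- and for CD70TG minus WT, with 95% confidence intervals from limma. All 20 intervals lie below 0, and the point without Ifng lies further below 0 than the point with Ifng intact for each gene, from -4.21 against -2.78 for Vcam1 to -1.20 against -1.12 for Siglec1.

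Whether the fall differed in size with and without interferon-gamma was tested by the interaction, the difference in CD70TG against WT minus that in CD70TG*Ifng-/- against Ifng-/-. It was positive for all 10 genes, so each estimated fall was smaller with Ifng intact, and it passed for 3 genes, where 1.61% of all genes were called in that direction. These were Vcam1 (1.43 ± 0.26, adjusted p = 0.0180), Cd5l (1.23 ± 0.27, adjusted p = 0.0388) and Adgre1 (1.22 ± 0.28, adjusted p = 0.0432). The other 7 did not pass, with adjusted p from 0.110 for Spic to 0.763 for Siglec1. Their estimates ran from 0.08 for Siglec1 (95% interval -0.23 to 0.39) to 0.63 for Axl (95% interval 0.09 to 1.17). The median of the 10 was 0.60, where the median of all genes was -0.04.

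The number of the 10 genes with an interaction past the threshold depended on single arrays, as did the number among all 19935 genes in either direction. Without WT 2 it was 7 of the 10 (Vcam1, Cd5l, Adgre1, Mrc1, Axl, Spic and Mertk) and 454 of all genes. It was 0 of the 10 without WT 1, CD70TG*Ifng-/- 2 or CD70TG*Ifng-/- 3, where 82, 85 and 94 of all genes were called. Of the 10 it was 3 without Ifng-/- 2 and 1 without WT 3, CD70TG 2, CD70TG 3, Ifng-/- 1 or Ifng-/- 3, the remaining call being Vcam1 in each of these. It was 2 without CD70TG 1 or CD70TG*Ifng-/- 1. The estimate for Vcam1 kept its sign throughout, between 1.20 and 1.63 over the 12 omissions, with limma adjusted p between 0.00641 and 0.0633. Quantile normalization was run on the centred values and gives every array the same set of lowest and highest values. It can thus itself narrow the differences of a gene at these extremes. After it the estimate for Vcam1 was 0.44 (limma adjusted p = 0.642) and 0 of the 10 genes passed, where 309 of all genes did. How much of this drop came from the narrowing was not tested.

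**Figure D3:**
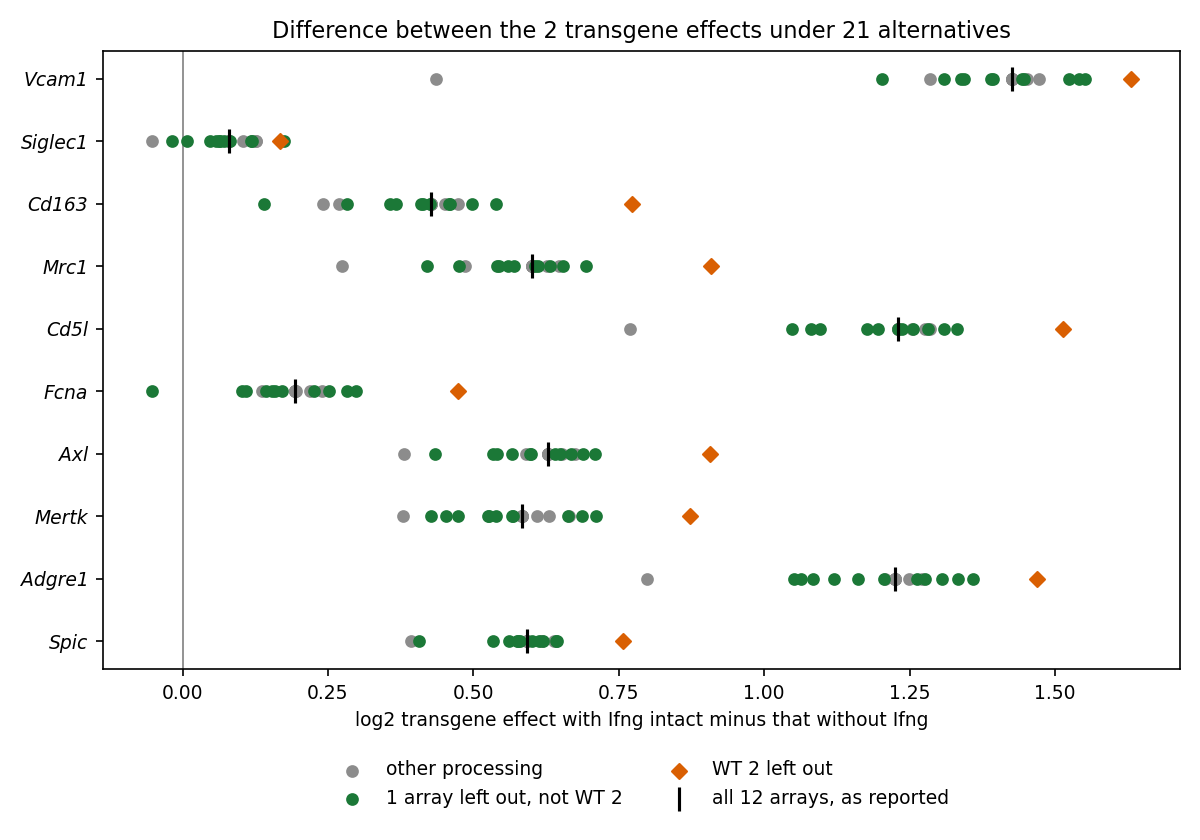
Interaction (horizontal axis, log2 transgene effect with Ifng intact minus that without Ifng) of the 10 genes (vertical axis) with all 12 arrays and under 21 alternatives. The estimate without WT 2 is the highest for 9 of the genes and close to the highest for Siglec1, and the isolated low value of Vcam1, 0.44, is that after quantile normalization.

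With the transgene present, loss of interferon-gamma was accompanied by a further fall of 1 of the 10 genes. In CD70TG*Ifng-/- against CD70TG, Vcam1 fell 2.16-fold (-1.11 ± 0.18, adjusted p = 0.00502), where 0.988% of all genes were called lower, and this call was lost after quantile normalization (-0.21, adjusted p = 0.873). Cd5l (-0.70, 95% interval -1.11 to -0.29, adjusted p = 0.111), Adgre1 (-0.55, 95% interval -0.98 to -0.13, adjusted p = 0.264) and Spic (-0.39, 95% interval -0.67 to -0.11, adjusted p = 0.225) did not pass over all genes. Cd5l passed without WT 2 or without Ifng-/- 1. These arrays lie outside the comparison and enter it only through the shared estimate of the spread. With only the 2 groups compared, Cd5l and Spic passed too, where 305 of all genes were called. With array weights Cd5l, Spic and Adgre1 passed too, where 3519 of all genes were called. Of the markers of stroma and endothelium, which also make VCAM-1, Col1a2 rose in this comparison (0.44) and the other 11 did not pass. The share of all genes called higher in it is not given here. For Vcam1, Mrc1, Cd5l, Spic and Adgre1 all 3 CD70TG*Ifng-/- arrays lay below all 3 CD70TG arrays, as they did for 8.27% of all genes. The intervals of the other genes held 0: Mrc1 -0.65 to 0.14, Cd163 -0.60 to 0.36, Axl -0.44 to 0.32, Mertk -0.48 to 0.35, Siglec1 -0.13 to 0.31 and Fcna -0.25 to 0.58.

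Without the transgene, 0 of the 10 genes passed between Ifng-/- and WT mice by limma, where 1 of all 19935 genes was called (0.00502%). All 10 differences were above 0, from 0.17 for Siglec1 to 0.67 for Adgre1, with a median of 0.35 where that of all genes was -0.01. The largest differences were those of Adgre1 (0.67, 95% interval 0.25 to 1.10, limma adjusted p = 0.245), Axl (0.57, 0.19 to 0.95, adjusted p = 0.255), Cd5l (0.53, 0.12 to 0.94, adjusted p = 0.283) and Mertk (0.52, 0.11 to 0.93, adjusted p = 0.286). The groups overlapped for all 10 genes, through WT 2 alone, an array set aside after seeing the data. For each gene the lowest Ifng-/- array lay above WT 1 and WT 3, though for Siglec1 only at 0.526 against 0.519 on WT 3. The share of all genes with this pattern was not counted, so it is a description only. The mean of the 10 genes on WT 2, 1.62, lay among the Ifng-/- means of 1.67, 1.35 and 1.54. Without WT 2, Axl (0.85, adjusted p = 0.0224), Mrc1 (0.65, adjusted p = 0.0324), Cd5l (0.81, adjusted p = 0.0416) and Mertk (0.81, adjusted p = 0.0416) passed as higher in Ifng-/- mice, and 42 of all 19935 genes were called in either direction, against 1 with all arrays.

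**Figure D4:**
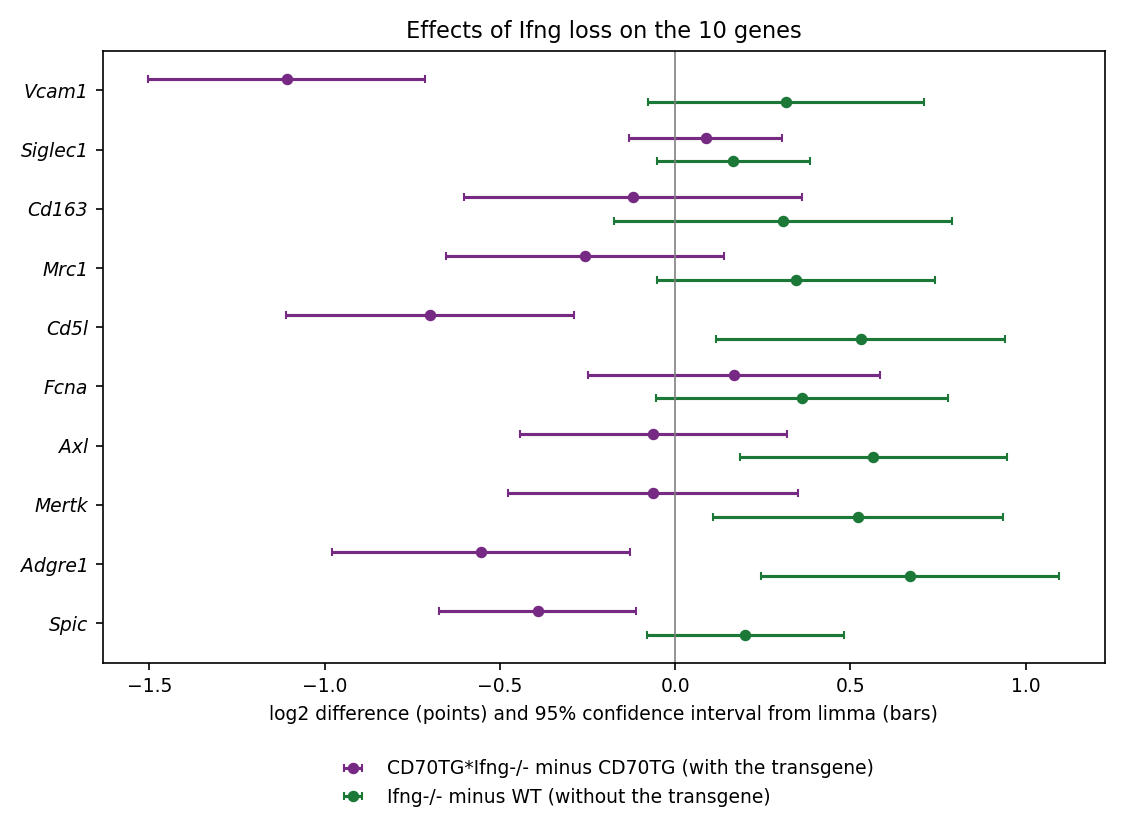
Log2 difference (horizontal axis) of the 10 genes (vertical axis) for CD70TG*Ifng-/- minus CD70TG and for Ifng-/- minus WT, with 95% confidence intervals from limma. With the transgene only the Vcam1 difference, -1.11, passed the adjusted threshold, and without it all 10 points lie above 0, between 0.17 and 0.67, and none passed.

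In order from low to high, the group means ran CD70TG*Ifng-/-, CD70TG, WT, Ifng-/- for 8 of the 10 genes. For Siglec1 and Fcna the lowest 2 were in the other order, CD70TG below CD70TG*Ifng-/-. The step between the transgenic groups and the others passed for every gene, the step between Ifng-/- and WT for 0, and the step between the 2 transgenic groups for Vcam1 alone. Against WT, CD70TG*Ifng-/- mice had all 10 genes lower (median -2.08, from -3.89 for Vcam1 to -1.03 for Siglec1, largest adjusted p 5.76e-04), where 1.34% of all genes were called lower. Against Ifng-/- mice, CD70TG mice had all 10 lower (median -2.56, from -3.27 for Mrc1 to -1.29 for Siglec1, largest adjusted p 2.68e-05), where 2.33% were. These comparisons share arrays with those above and add no separate evidence.

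The median standard deviation of the 10 genes was 0.108 among CD70TG*Ifng-/- mice, where that of all genes was 0.0945, and 0.149 among CD70TG mice (all genes 0.0941). It was 0.184 among Ifng-/- mice (all genes 0.108) and 0.494 among WT mice (all genes 0.0949). The WT value rested on WT 2: over WT 1 and WT 3 alone, a calculation added after seeing the data, it was 0.0778. Vcam1 had its highest standard deviation among CD70TG mice (0.389) and Siglec1 among Ifng-/- mice (0.192). Ifng-/- 2 was the lowest Ifng-/- array for all 10 genes. No array held one place for all 10 genes in the transgenic groups: CD70TG*Ifng-/- 1 was the highest of its group for 6 genes and the lowest for 2, and CD70TG 3 was the highest for 7 and the lowest for 3. WT 1 and WT 3 were each the lowest WT array for 5. Averaged over the 10 genes, the CD70TG*Ifng-/- arrays stood at -1.23, -1.30 and -1.28 and the CD70TG arrays at -1.04, -1.01 and -0.85. The Ifng-/- arrays stood at 1.67, 1.35 and 1.54 and the WT arrays at 0.92, 1.62 and 0.82. Fcna followed this mean most closely, with a mean absolute difference of 0.162 over the 12 arrays, followed by Axl (0.184) and Adgre1 (0.226). Siglec1 (0.639) and Vcam1 (0.529) departed most, the first with small and the second with large differences between groups.

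The 8 other genes whose values were closest to the mean of the 10 genes on the 12 arrays were Cd68, a lysosomal protein of macrophages (mean absolute difference 0.136), Trf, the transferrin gene (0.160), Marcks, a protein kinase C substrate (0.163), Cfp, the complement factor properdin (0.175), Apoe, the apolipoprotein E gene (0.220), Hpgd, which degrades prostaglandins (0.230), Lpl, lipoprotein lipase (0.261) and C1qc, a chain of complement C1q (0.263). The median gene differed by 1.23. Cd68 and Trf lay closer to that mean than any of the 10 genes did. Their choice by likeness to that mean fixes their direction, and their differences are given as a description: between -1.52 (Apoe) and -2.35 (Trf) in CD70TG against WT and between -2.09 (Lpl) and -3.12 (C1qc) in CD70TG*Ifng-/- against Ifng-/-.

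Other genes of island macrophages were described from lists chosen for their roles, with the same test over all genes. Of 10 adhesion partners, Sirpa (-2.23 ± 0.19, the macrophage receptor for CD47), Itgb5 (-1.24) and the integrin alpha-V gene Itgav (-0.60) fell in CD70TG*Ifng-/- against Ifng-/- and 0 rose. In CD70TG against WT the same 3 fell (-1.15, -0.89 and -0.47) and Itgb1, a subunit of the precursors' own VCAM-1 receptor, rose (0.28). The share of all genes called higher in CD70TG against WT is not given here. Maea, the erythroblast macrophage protein, passed in neither comparison. The medians of the list were -0.03 and -0.11.

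Of 12 engulfment genes, the phosphatidylserine receptor Timd4 (-0.62) and Lrp1 (-0.92) fell in CD70TG*Ifng-/- against Ifng-/- and 0 rose. In CD70TG against WT, 4 fell, Timd4 (-0.61), Lrp1 (-0.78), Cd36 (-0.70) and Stab2 (-0.32), and 0 rose. The third TAM kinase Tyro3 and the TAM ligands Gas6 and Pros1 passed in neither comparison. Cd36 was the only gene of that list with an interaction past the threshold (-0.84, limma adjusted p = 0.0265). Its difference in CD70TG*Ifng-/- against Ifng-/-, 0.14, did not pass. The share of all genes with a negative interaction is not given here.

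Of 12 further scavenger receptors and lectins, 4 fell in CD70TG*Ifng-/- against Ifng-/-, Cd68 (-2.77), Clec4n (-1.14), Clec7a (-0.89) and Clec10a (-0.37), and 2 in CD70TG against WT, Cd68 (-1.87) and Clec7a (-0.48), with 0 higher in either. Of the 7 Siglec relatives of Siglec1, 0 passed in CD70TG*Ifng-/- against Ifng-/-, and the B cell gene Cd22 (-0.41) fell in CD70TG against WT, while Cd33 (-0.96 and -0.93) and Siglece (-0.60 and -0.39) passed in neither. Of 11 measured regulators of macrophages, the receptor of the growth factor CSF1 (Csf1r, -1.68), Pparg (-1.48), Irf8 (-0.74) and the liver X receptor gene Nr1h3 (-0.68) fell in the first comparison, and Csf1r (-0.70) and Pparg (-1.07) in the second, with 0 higher. Csf1r also had a positive interaction (0.98 ± 0.19, adjusted p = 0.0212).

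Of 9 measured iron recycling genes, 5 fell in CD70TG*Ifng-/- against Ifng-/- and 4 in CD70TG against WT, with 0 higher. The haem oxygenase gene Hmox1 (-3.68 and -3.16), Trf (-3.10 and -2.35), the iron exporter gene Slc40a1 (-1.09 and -1.20) and the ferritin light chain gene Ftl1 (-0.38 and -0.54) fell in both, and the biliverdin reductase gene Blvra (-0.38) in the first alone, its difference between the comparisons not passing. Of the 7 C1q and Fc receptor genes, all 7 fell in CD70TG*Ifng-/- against Ifng-/- (median -2.36), and 5 fell in CD70TG against WT (median -1.20), the others being Fcgr3 and Fcgr4. An interaction passed for 3 of the 7, C1qb (1.25), C1qc (1.25) and Fcgr4 (1.77). In CD70TG*Ifng-/- against CD70TG, 4 of the 7 fell, Fcgr4 (-1.73), C1qb (-1.01), C1qc (-0.94) and Fcer1g (-0.90).

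Markers of other cells the samples could hold moved less evenly. Of 12 stroma and endothelium markers 0 passed in either transgene comparison by limma, the 3 with the smallest p being Col1a2 (0.26 and -0.18), Col1a1 (0.13 and -0.21) and Cxcl12 (-0.03 and -0.18) in CD70TG*Ifng-/- against Ifng-/- and in CD70TG against WT. The mean of that list ranged from 0.04 to 0.07 over CD70TG*Ifng-/- arrays and from -0.13 to 0.00 over CD70TG arrays, and from -0.11 to 0.02 over Ifng-/- arrays and from -0.05 to 0.11 over WT arrays. Of 8 measured monocyte markers, Lyz2 fell in both comparisons (-1.73 and -1.25), Ccr2 (-0.61 and -0.19) and Cd14 (-0.45 and -0.33) did not pass, and the list mean ranged from -0.36 to -0.05 in CD70TG*Ifng-/-, -0.32 to 0.08 in CD70TG, -0.34 to 1.00 in Ifng-/- and 0.21 to 0.30 in WT. Of 8 dendritic cell markers, Itgax (-0.37) fell in the first comparison and Cd209a (-0.40) in the second, and Flt3 (-0.19 and -0.32) passed in neither.

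Neutrophil and B cell markers moved with the transgene too. Of 8 neutrophil markers 0 passed in CD70TG*Ifng-/- against Ifng-/- (median -0.97), and 4 fell in CD70TG against WT (median -1.48), among them Retnlg (-1.88), S100a9 (-1.72) and Cxcr2 (-1.45). An interaction passed for 0 of these 8 markers. Their mean ranged from -0.69 to -0.01 over CD70TG*Ifng-/- arrays and from -0.52 to -0.06 over CD70TG arrays. It ranged from -0.72 to 2.05 over Ifng-/- arrays and from 1.03 to 1.35 over WT arrays. Ifng-/- 2 had the lowest neutrophil mean of all 12 arrays, and it was also the lowest Ifng-/- array for all 10 macrophage genes. Of 7 measured B cell markers, 1 fell in CD70TG*Ifng-/- against Ifng-/- (Cd79b, -0.68) and all 7 fell in CD70TG against WT, among them Cd79a (-1.53), Cd79b (-1.31) and Vpreb3 (-0.86). A negative interaction passed for 2 of these 7 markers, and the other 5 did not pass. The share of all genes with a negative interaction is not given here, so this count is a description only. Of 7 measured T and NK cell markers Cd4 fell in both (-1.03 and -0.52), while Klrb1c (0.08 and -0.13) and Gzma (0.04 and -0.15) did not pass. Of the 7 red cell precursor markers 0 passed in the first comparison and Alas2 (-0.43) fell in the second, while Epor (0.23 and 0.11) and Epb42 (0.12 and -0.17) passed in neither. Values are centred, so no marker can be read as absent, and the part of these cells in the macrophage gene differences was not tested.

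**Figure D5:**
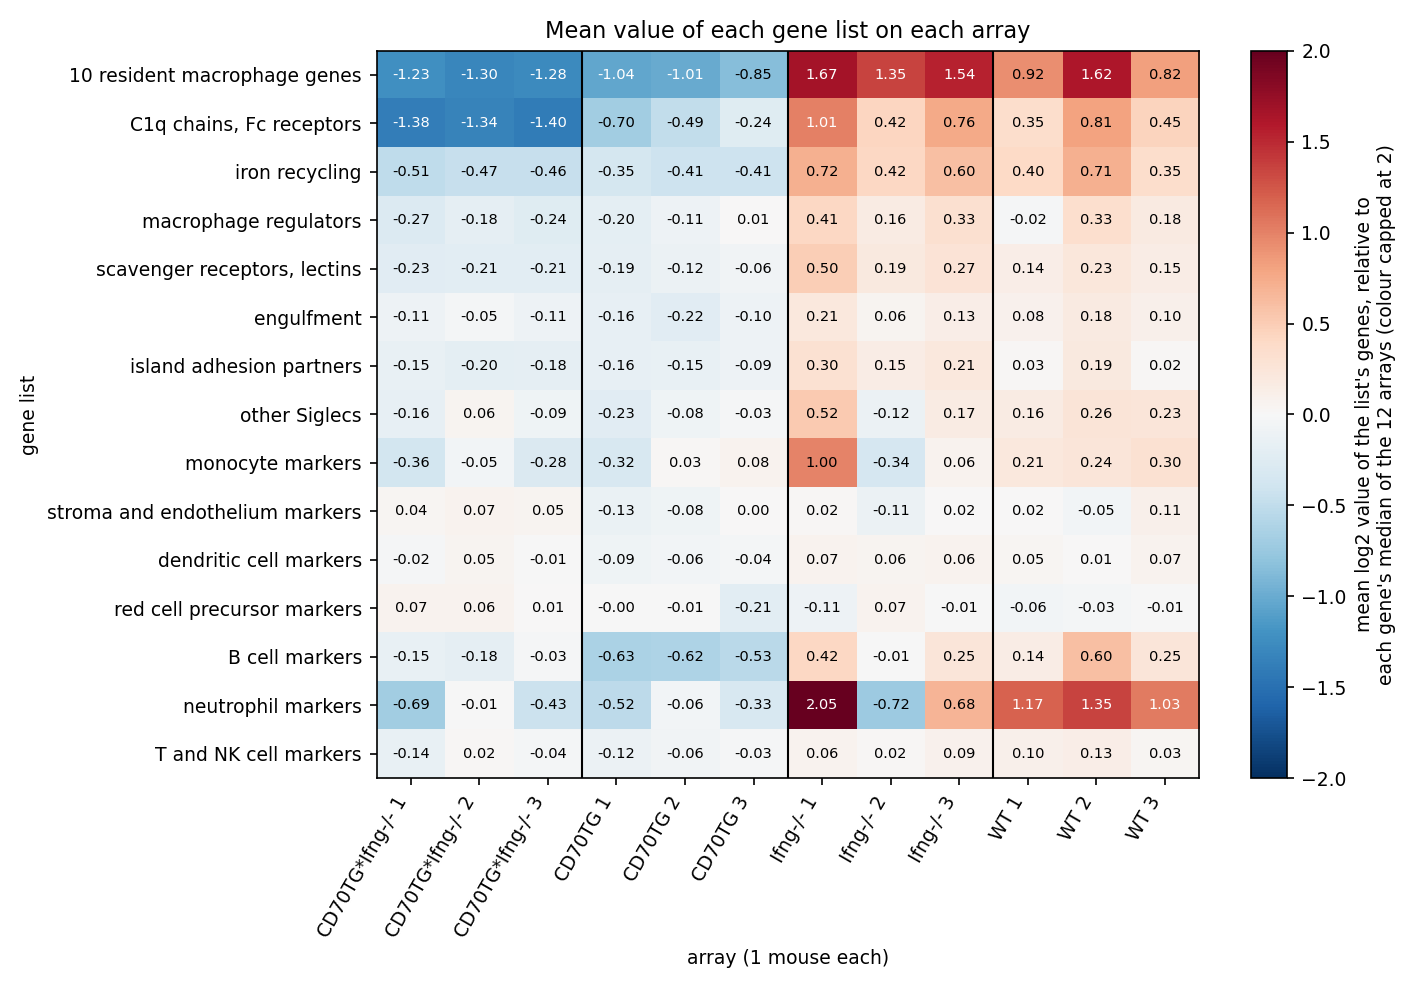
Mean log2 value of the genes of each list (rows, relative to each gene's own median) on each of the 12 arrays (columns, 1 mouse each). The resident macrophage, C1q and Fc receptor, iron recycling, scavenger receptor, engulfment and island adhesion lists are below 0 on all 6 transgenic arrays and above 0 on the 6 others, whereas the neutrophil markers range from -0.72 to 2.05 within Ifng-/- and the red cell precursor markers stay between -0.21 and 0.07.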

How the data were processed

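Gene expression was measured in CD71-enriched marrow of 12 mice, 3 per group, with groups taken from the labels. The deposited log2 values were made by the authors with RMA, per the submitters' processing notes, on 1-colour whole-transcript Affymetrix arrays, per the labels' protocols. The annotation RMA ran with is not given in the sources used here. The median of each probe set over the arrays was 0 within 5e-07, so the values hold no absolute level, and who centred them is unknown. The log base and direction were taken from what RMA gives.

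Probe sets were named from GEO's platform annotation: 21780 had 1 symbol, 1605 several and 5430 none, and the last 2 kinds named no gene. A gene's probe sets were averaged, which applied to 998 of 19935 genes and to 0 of the 10 described. A model with 4 group means was fitted with limma 3.58.1 (lmFit, eBayes) under R 4.3.3, with 8 residual degrees of freedom and 6.23 from the prior. The two-sided p-values were corrected over all 19935 genes by Benjamini-Hochberg at a threshold of 0.05. The test was checked on simulated data. The number of arrays limits the precision.

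The 10 genes and all lists were chosen with earlier results of these data known. Named beside the 10 were up to 3 genes per list with the smallest p in either transgene comparison, and the 8 genes nearest to the mean of the 10. Other called list members named in the text (Itgb1, Stab2, Clec10a, Irf8, Ftl1, Blvra, Fcgr4 and Fcer1g), and Maea, Tyro3, Gas6, Pros1 and Fcgr3, were chosen after their values were seen. Some listed genes are not analysed here. Alternatives were other scalings, probe set rules, filters and variance estimates, array weights, the replicate number as a block, and leaving out each array.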

Additional observations from a re-analysis of the deposited data

Results flagged for a closer look

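For 3 of the 10 genes the effect of the transgene differed between mice with and without interferon-gamma by a test of the difference itself. The effect with Ifng intact minus that without Ifng was 1.43 for Vcam1, 1.23 for Cd5l and 1.22 for Adgre1 on the log2 scale (limma interaction, adjusted p = 0.0180, 0.0388 and 0.0432). In each, CD70TG*Ifng-/- mice had the lowest values, and each call was lost when at least 1 single array was left out.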

How the results depend on the processing

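The counts of genes changed in CD70TG against WT, CD70TG*Ifng-/- against Ifng-/-, CD70TG*Ifng-/- against WT and CD70TG against Ifng-/- were 10 of 10 under all alternatives. The interaction count of 3 was 0 after quantile normalization and 1 with robust eBayes, where 309 and 411 of all genes were called. It was 4 with array weights, under which 2040 of all genes were called, and it lay between 0 and 7 when single arrays were left out. In CD70TG*Ifng-/- against CD70TG the count of 1 was 0 after quantile normalization, where 283 of all genes were called in either direction. It was 3 with only the groups compared and 2 without the 30% least variable genes, where 305 and 380 were called. With array weights it was 4, where 3519 of all genes were called. When single arrays were left out it lay between 1 and 2, where 136 to 365 were called. In Ifng-/- against WT the count was 0, and between 0 and 4 when single arrays were left out. Where it was 4, without WT 2, 42 of all genes were called.

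Changes of sign concerned only differences that had not passed. After quantile normalization CD70TG*Ifng-/- against CD70TG was 0.093 for Cd163, 0.11 for Mrc1 and 0.035 for Axl, and the interaction of Siglec1 was -0.053. Cd163 in the same comparison was 0.022 with array weights, and it ran from -0.23 to 0.025 when single arrays were left out, above 0 without CD70TG*Ifng-/- replicate 2. The interaction ran from -0.052 (without WT replicate 3) to 0.47 for Fcna and from -0.018 (without Ifng-/- replicate 1) to 0.17 for Siglec1. The cause was not tested.

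The groups share replicate numbers in the labels. Of 18 pairs of same-numbered arrays 6 had deviations from their group means that correlated above 0.1 (r from -0.40 to 0.31 across genes), against 13 of 36 other pairs, so the numbers were not taken to pair the mice. With the replicate number as a block the interaction count was 1, where 128 of all genes were called, and the block moved no other count. The choice of only bright probe sets could not be run, since 0 of the 10 genes lay in that class, and the interaction cannot be fitted with only the groups of a pair.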
